A study of Homo sapiens with 8 samples.

Results

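Interferon-stimulated genes are genes that cells switch on in reply to interferon, and 10 of them at 5 loci were followed here for dimethylation of lysine 4 of histone H3 (H3K4me2), a mark of promoters and enhancers. They are BST2, the IFIT cluster of IFIT2, IFIT3, IFIT1 and IFIT5, ISG15, the OAS cluster of OAS1, OAS3 and OAS2, and MX1. A locus was the hg19 interval of its gene or cluster widened by 10 kb on each side, and every peak that overlapped it was taken. BST2 was selected on the peak scores of the siLSD1 lists, because a high-scoring region gained after knockdown of LSD1 lies there, so its difference between the groups is a description and was not tested. The other loci were listed with results of these data known. Together the loci held 23 of the 58952 merged peak regions of the genome. A peak over BST2 itself was called in both siLSD1 libraries and in no siCtrl library, while ISG15, MX1 and the IFIT and OAS clusters were marked in both conditions.

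Sequencing of immunoprecipitated chromatin (ChIP-seq) gave maps of the mark in RD, a human cell line from an embryonal rhabdomyosarcoma, a tumour of skeletal muscle lineage. Cells were transfected with an siRNA against LSD1 (siLSD1, construct s618) or with a control siRNA (siCtrl), using the same reagent, with a change of medium after 8 hours and harvest at 96 hours. Each siRNA has 2 ChIP libraries, which the submitters call biological replicates, and each pair also has a list of pooled peaks. Knockdown rests on a single siRNA sequence, its extent cannot be read from these files, and muscle markers of RD were not checked, as hg19 positions were at hand only for the 5 loci. No sample was treated with interferon, as far as the labels say. LSD1, encoded by KDM1A, is an enzyme that demethylates the mono- and dimethylated residue.

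The deposited values are peak positions and a score, with no read depth. The library lists held 50587 and 49611 peaks after siLSD1 and 33878 and 44831 after siCtrl, so siCtrl replicate 1 had the shortest list. Covered sequence over chromosomes 1 to 22 and X was 1.23 times as long in the mean of the siLSD1 lists as in that of the siCtrl lists. The part of list length in any result below was not tested, and values without a library or with equally long lists are given where they move the covered length of a locus. More marked cells and more marked copies per cell cannot be told apart.

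Interferons bind receptors at the cell surface, and the signal passes to the nucleus. There it acts through the interferon-stimulated response element (ISRE) in promoters of the responsive genes, whose products hold back viruses at many steps. BST2, also called tetherin, keeps budding enveloped viruses on the cell surface. IFIT proteins bind viral RNA, OAS enzymes sense double-stranded RNA and activate RNase L, MX1 is a dynamin-like GTPase that blocks viral nucleocapsids, and ISG15 is a ubiquitin-like protein that is joined to other proteins.

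Promoter sequences of these genes were searched for motifs of the interferon response. They came from RefSeq on the GRCh38.p14 build and run from 250 bases before the annotated start to 50 after it. Of the 10 genes, 8 matched, with 11 promoters, and IFIT2 and OAS2 did not. The ISRE core was searched on both strands as GAAA, any 2 bases and GAAA again, which the other strand reads as TTTC, any 2 bases and TTTC, and overlapping matches were counted. It was found in 9 of the 11 promoters and in 7 of the 8 genes, against 3.57% of all 35116 promoters in the table. In 7 of the 11 it occurred at least 2 times, against 0.259% of all promoters. The gamma-activated site, searched as TTCNNNGAA, which reads the same on both strands, was in 3 of the 11, against 7.66% of all. One promoter per locus is shown, 5′ to 3′ on the strand of the gene, with the matches to the ISRE core in capitals. The coordinates are GRCh38.p14 and cannot be set beside the hg19 peaks. BST2 lies on the minus strand at chr19:17405581-17405880, and the others on the plus strand, IFIT1 at chr10:89392373-89392672, ISG15 at chr1:1013247-1013546, OAS3 at chr12:112938224-112938523 and MX1 at chr21:41420308-41420607.
BST2: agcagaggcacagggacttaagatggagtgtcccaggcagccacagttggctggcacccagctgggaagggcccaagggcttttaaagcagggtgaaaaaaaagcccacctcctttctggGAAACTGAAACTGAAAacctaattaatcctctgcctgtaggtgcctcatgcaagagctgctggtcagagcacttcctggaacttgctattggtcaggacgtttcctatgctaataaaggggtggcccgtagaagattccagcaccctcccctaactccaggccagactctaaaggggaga
IFIT1: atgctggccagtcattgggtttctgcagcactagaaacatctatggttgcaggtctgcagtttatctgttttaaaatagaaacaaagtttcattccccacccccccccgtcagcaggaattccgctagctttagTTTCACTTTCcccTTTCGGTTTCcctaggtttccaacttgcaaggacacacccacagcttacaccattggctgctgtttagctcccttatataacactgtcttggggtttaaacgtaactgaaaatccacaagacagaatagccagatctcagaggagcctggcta
ISG15: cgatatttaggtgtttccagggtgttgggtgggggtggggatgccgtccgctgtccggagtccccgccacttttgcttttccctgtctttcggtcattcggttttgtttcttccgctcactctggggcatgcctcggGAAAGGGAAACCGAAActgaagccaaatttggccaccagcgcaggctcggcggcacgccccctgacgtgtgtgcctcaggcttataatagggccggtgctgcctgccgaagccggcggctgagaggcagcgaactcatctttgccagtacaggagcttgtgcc
OAS3: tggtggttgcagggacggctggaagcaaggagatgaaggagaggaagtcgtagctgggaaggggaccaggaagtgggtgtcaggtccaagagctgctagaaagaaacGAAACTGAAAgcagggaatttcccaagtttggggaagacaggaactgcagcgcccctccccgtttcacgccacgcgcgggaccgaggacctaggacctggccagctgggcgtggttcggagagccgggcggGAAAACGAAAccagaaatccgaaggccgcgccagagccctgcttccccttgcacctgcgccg
MX1: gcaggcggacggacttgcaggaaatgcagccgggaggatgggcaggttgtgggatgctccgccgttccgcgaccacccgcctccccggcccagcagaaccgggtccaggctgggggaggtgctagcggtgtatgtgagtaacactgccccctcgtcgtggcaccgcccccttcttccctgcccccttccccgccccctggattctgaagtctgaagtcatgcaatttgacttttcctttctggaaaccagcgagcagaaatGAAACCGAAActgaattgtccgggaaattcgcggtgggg

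In BST2 the matches overlap and begin 130 and 124 bases before the start, and in ISG15 they likewise overlap. Those of IFIT1 lie on the other strand at 116 and 103 bases before the start. The first promoter of MX1 has its match 11 bases after the start base, and the promoter of OAS1, which is not shown, has 0 matches to these letters. A match is a description of letters and says nothing about binding in these cells.

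Peaks of the 4 libraries that overlapped were merged into regions. A region is called common when all 4 libraries have a peak in it, and gained when it has a peak in siLSD1 replicates 1 and 2 but in no siCtrl library. A lost region is the reverse. Of the 23 regions at the loci, 16 were common, 2 were gained, 0 were lost and 5 were found in another set of libraries. Over the whole genome 45.2% of regions were common, 6.97% gained, 1.04% lost and 46.8% in another set. One of the gained regions is that of BST2, for which the locus was chosen, and outside BST2 the counts were 1 gained among 20 regions, which is near the share of the genome. All 5 loci thus carried H3K4me2 in control cells, and only the sequence at BST2 itself had no siCtrl peak within its gene interval.

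Marked sequence at each locus was summed as kilobases under peaks. At IFIT it was 25.6 and 24.8 kb in siLSD1 replicates 1 and 2, against 17.4 and 23.4 kb in siCtrl replicates 1 and 2. At OAS it was 6.09 and 7.47 kb after siLSD1 against 3.22 and 5.47 kb after siCtrl. At MX1 it was 3.39 and 3.52 kb after siLSD1 against 2.71 and 3.24 kb after siCtrl. In the full lists both siLSD1 libraries thus lay above both siCtrl libraries at these 3 loci, and at each the siCtrl libraries lay farther apart than the siLSD1 ones. The covered length of the whole genome had the same order, with 96.9 and 104 Mb after siLSD1 against 70.1 and 94.1 Mb after siCtrl. The differences of the means were 4.75 kb at IFIT, 2.44 kb at OAS and 0.481 kb at MX1, each with a two-sided exact permutation p of 0.3333, the smallest that 2 libraries against 2 can give. Without siCtrl replicate 1 the differences were 1.76, 1.31 and 0.217 kb, and without siCtrl replicate 2 they were 7.74, 3.56 and 0.744 kb. In lists of equal length the IFIT groups overlapped, with a difference of 1.68 kb (exact permutation p of 1), while the groups stayed apart at OAS with 1.19 kb and at MX1 with 0.481 kb. In the upper 50% of each list by score the groups overlapped at IFIT, with 2.91 kb (exact permutation p of 0.667), and at OAS, with 0.215 kb (exact permutation p of 1), and were apart at MX1 with 1.84 kb. The separation at IFIT and OAS was thus not seen in every set of peaks. With loci not widened the MX1 difference was 0.312 kb.

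ISG15 had 8.31 and 8.18 kb after siLSD1 against 8.13 and 8.34 kb after siCtrl, so the groups overlapped. The difference was 0.0145 kb (exact permutation p of 1). In lists of equal length it was -1.27 kb, and the groups were apart, with both siLSD1 libraries below both siCtrl libraries. They were apart in the same order with the locus widened by 25 kb, at -1.21 kb. At BST2 the values were 6.71 and 6.65 kb after siLSD1 against 2.38 and 2.49 kb after siCtrl. This difference of 4.25 kb is what the locus was chosen for. Without siCtrl replicate 1 it was 4.19 kb, and it was 4.25 kb in lists of equal length. Those lists keep the top-scoring peaks, so a gained region chosen for its high score stays in them by that choice. The width of the locus moved the difference, to 2.11 kb with the locus not widened and to 6.43 kb with the locus widened by 25 kb in place of 10 kb. Over the 4 other loci together, the mean was 43.7 ± 0.409 kb after siLSD1 and 36.0 ± 6.34 kb after siCtrl (SD, n = 2 each). The ratio of these means, 1.21, is close to the 1.23 of the whole genome.

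**Figure D1:**
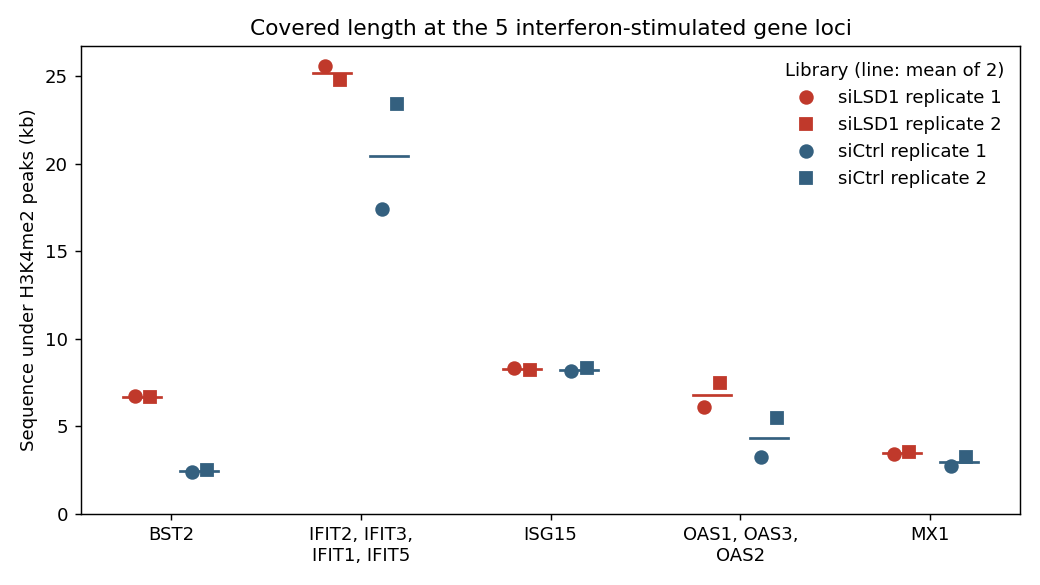
Kilobases under H3K4me2 peaks (vertical axis) at the 5 loci, with 1 point per library and a line at the mean of the 2 libraries of each siRNA. BST2 and ISG15 show tight pairs, with the siRNA groups apart at BST2 and overlapping at ISG15, while siCtrl replicate 1 is the lowest library at all 5 loci.

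BST2 lies in 19p13.11. Its gained region ran on chromosome 19 from 17514750 to 17518813 (hg19), covered the end of the gene interval with the higher coordinates and reached beyond it. Before and after are used here in order of coordinates. As BST2 lies on the minus strand, its start is on the side of the higher coordinates. Peaks there were 4.06 and 3.64 kb wide in siLSD1 replicates 1 and 2, and siCtrl replicates 1 and 2 had none. Their scores were 393.39 and 318.3, which placed them at the percentiles 75.5 and 62.0 of their own lists, a percentile being the share of peaks in the same list with a lower score. The pooled siLSD1 list had a peak from 17514182 to 17518813 with a score of 639.37, and the pooled siCtrl list had none. In the gene order of RefSeq, BST2 is followed by BISPR, a long non-coding RNA gene, and by MVB12A, which encodes a subunit of the ESCRT-I sorting complex. Whether the peak marks the start of BST2 or of these neighbours was not analysed here.

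On either side the BST2 locus had a common region. The one before the gene, from 17500545 to 17503420, overlapped the locus by 421 bp only, and its width in the 4 libraries was 2.65 and 2.88 kb after siLSD1 against 2.58 and 2.53 kb after siCtrl. The one after it, from 17522071 to 17524655, was 2.45 and 2.59 kb wide after siLSD1 against 2.01 and 2.29 kb after siCtrl. Both flanking regions were thus broader in both siLSD1 libraries, as were 30.3% of all common regions of the genome. Before the gene the nearest values of the groups were 2.65 kb after siLSD1 and 2.58 kb after siCtrl. The flanking regions lay 11.3 and 3.26 kb from the gained region, and both ranked high in all lists. Their score percentiles were 98.0 and 98.9 after siLSD1 against 94.2 and 98.0 after siCtrl before the gene, and 94.0 and 89.9 after siLSD1 against 82.0 and 80.4 after siCtrl behind it. These lists differ in length, so their percentiles are not comparable between the siRNAs. In lists of equal length the region before the gene stood at 97.0 and 98.3 after siLSD1 against 94.2 and 97.3 after siCtrl. The region behind it then stood at 91.0 and 85.2 after siLSD1 against 82.0 and 74.0 after siCtrl. Both siCtrl libraries thus had a peak on either side of BST2 but not over it. Just outside the locus the nearest regions lay 5.43 kb before and 2.08 kb after its edges, and both were common.

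**Figure D2:**
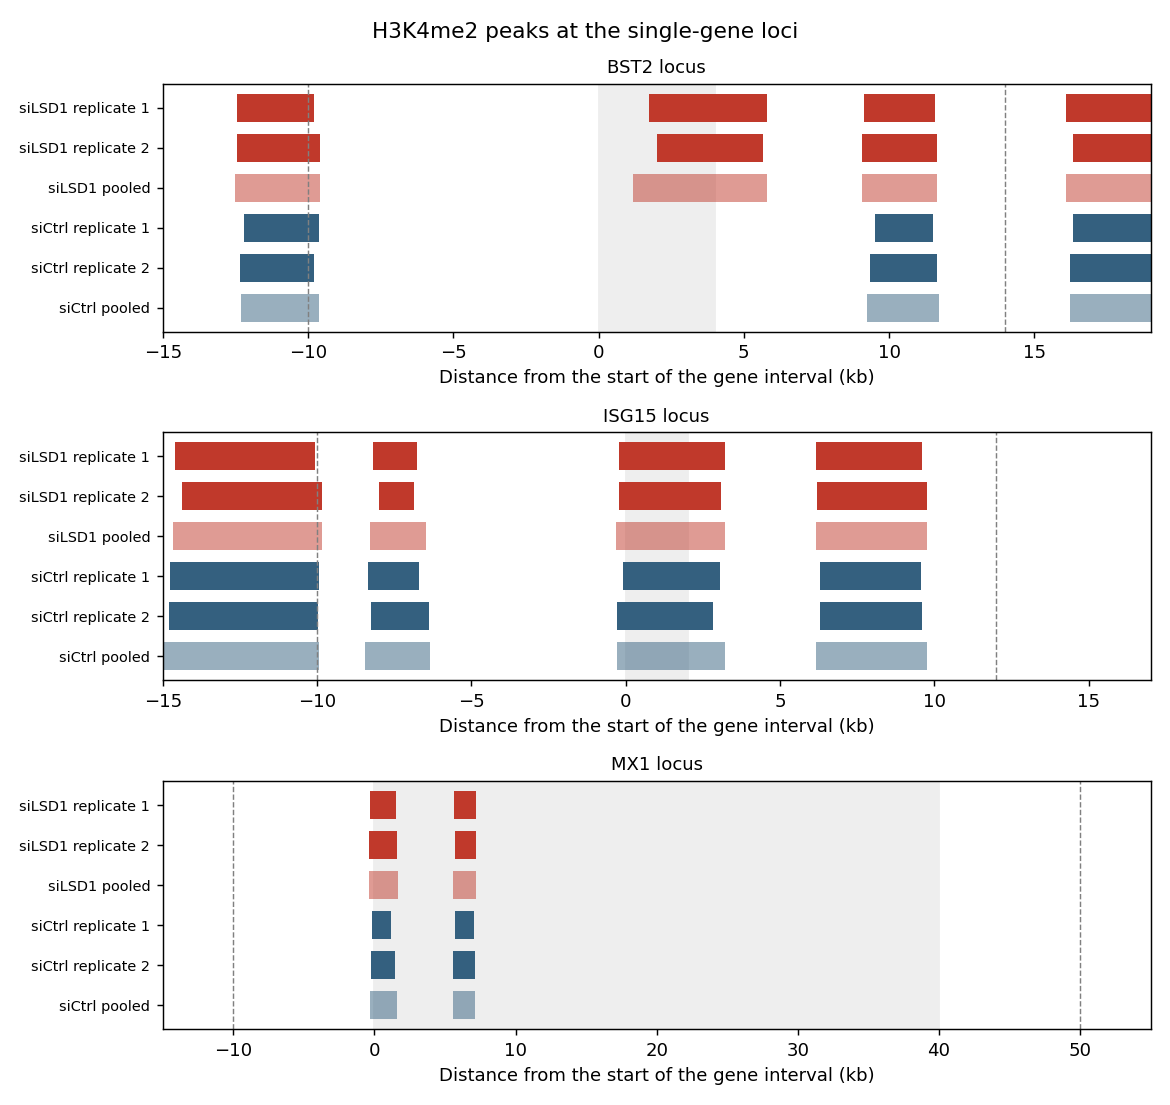
Peaks of each library and pooled list (rows) at the BST2, ISG15 and MX1 loci, with distance from the start of the gene interval in kb on the horizontal axis. Grey marks the gene interval, dashed lines mark the locus, and the peak over BST2 is present in the 3 siLSD1 rows and absent from the 3 siCtrl rows, whereas ISG15 and MX1 have their peaks in every row.

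Among all 4107 gained regions, that of BST2 ranked high in both siLSD1 lists. The locus was chosen for a high score, so this rank restates the choice and is no further result. Of the gained regions, 3 had a higher score percentile in both lists, and that of BST2 ranked 17 by width, 4064 bp against a median of 1424 bp. The median percentiles of gained regions were 24.1 and 23.8 in siLSD1 replicates 1 and 2. The 5 gained regions nearest to it in both percentiles were a region of 9q32 from 116937230 to 116941134 at percentiles of 75.0 and 60.6, one of 1p33 from 48516726 to 48519136 at 74.5 and 65.8, and one of 10q24.2 from 99648113 to 99649904 at 70.1 and 62.1. The remaining 2 lay in 19p13.11, as BST2 does, from 17865276 to 17870655 at 72.2 and 59.3 and from 17709989 to 17711662 at 68.9 and 63.1. The share of all gained regions that lie in this band was not counted. The likeness in percentiles is over 2 libraries, and it says nothing of shared control.

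**Figure D3:**
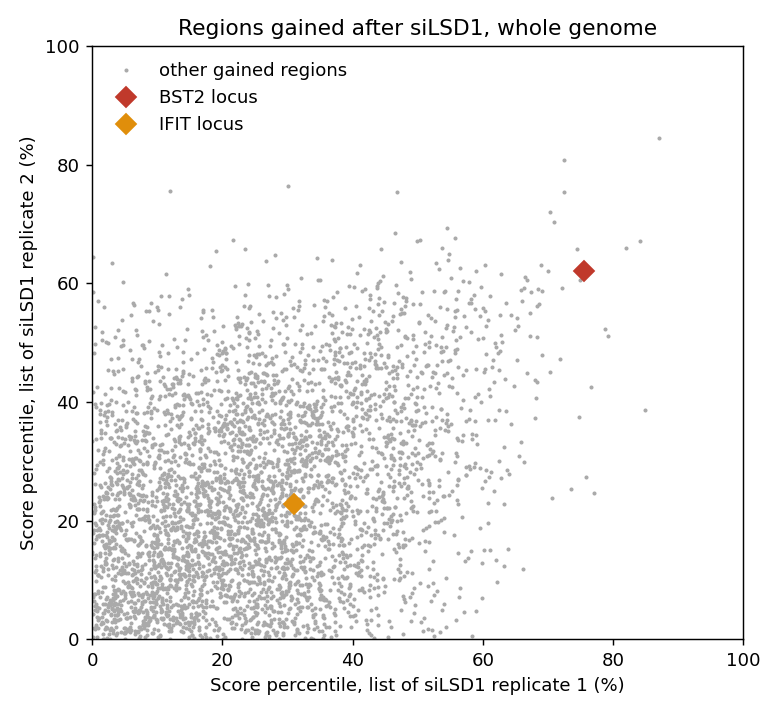
Score percentile of every gained region of the genome in the list of siLSD1 replicate 1 (horizontal) and replicate 2 (vertical), in % of peaks with a lower score. The BST2 region, which was chosen for its high score, stands at the upper right of the cloud, at 75.5 and 62.0. The gained region of the IFIT locus, at 31.0 and 22.7, lies within the cloud.

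At the IFIT cluster in 10q23.31, 9 regions were found, of which 6 were common. The first common region, from 91060325 to 91064747, lay at the start of the interval, where IFIT2 comes first in the gene order. It was 4.08 and 3.86 kb wide after siLSD1 against 2.41 and 4.08 kb after siCtrl, and the narrow value of siCtrl replicate 1 is the one that stands apart. Near the end of the interval, where IFIT5 is last, a region from 91172927 to 91176709 was 3.59 and 3.64 kb wide after siLSD1 against 3.31 and 3.78 kb after siCtrl. These values overlapped between the groups. Peaks inside the cluster were not assigned to single genes, since the order of the genes but not their hg19 positions was at hand. IFIT1B and the pseudogene IFIT6P also lie within the cluster.

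The broadest region of all 5 loci ran from 91086581 to 91094676, in the part of the cluster that follows IFIT2. It was a single peak of 7.62 and 7.80 kb in siLSD1 replicates 1 and 2, and a pair of peaks that summed to 5.61 and 7.66 kb in siCtrl replicates 1 and 2. A gap of 1869 bp parted the pair in siCtrl replicate 1 and one of 352 bp in siCtrl replicate 2. Of the 16 common regions at the loci this was the only one with 1 peak in both siLSD1 lists and more in both siCtrl lists, a pattern of 0.484% of common regions in the genome. The reverse, 1 peak in both siCtrl lists and more in both siLSD1 lists, was seen at 0 of the 16, against 1.97% in the genome. In the pooled siLSD1 list the peak was 7928 bp wide, and the pooled siCtrl list also had 1 unbroken peak there of 7814 bp.

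A second gained region lay before IFIT2, from 91055304 to 91056342, outside the gene interval but within the widened locus. It was narrow, with 1001 and 950 bp under peaks after siLSD1 and no peak in either siCtrl library, and its scores of 105.49 and 90.67 stood at the percentiles 31.0 and 22.7. Of all gained regions, 959 had a higher percentile in both lists. It was not present in lists of equal length, which keep the top-scoring peaks, whereas the region of BST2, chosen for its high score, was. The pooled siLSD1 list had a peak there with a score of 159.97, and the pooled siCtrl list had none.

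In the second part of the cluster, a region from 91150914 to 91154362 was 3.45 and 3.17 kb wide after siLSD1 against 2.71 and 3.01 kb after siCtrl, broader in both siLSD1 libraries. Next to it, from 91154401 to 91155720, the siLSD1 libraries had peaks of 1.25 and 1.32 kb, while siCtrl replicate 1 had none and siCtrl replicate 2 had one of 0.752 kb with a score of 50.52, close to the lowest score of its list, 50. The remaining common regions overlapped between the groups. From 91110002 to 91113006 the widths were 2.35 and 2.84 kb after siLSD1 against 2.25 and 2.82 kb after siCtrl. From 91157511 to 91158826 they were 1.24 and 1.19 kb after siLSD1 against 1.14 and 1.32 kb after siCtrl. A peak from 91107581 to 91108565 was found in siLSD1 replicate 1 alone.

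**Figure D4:**
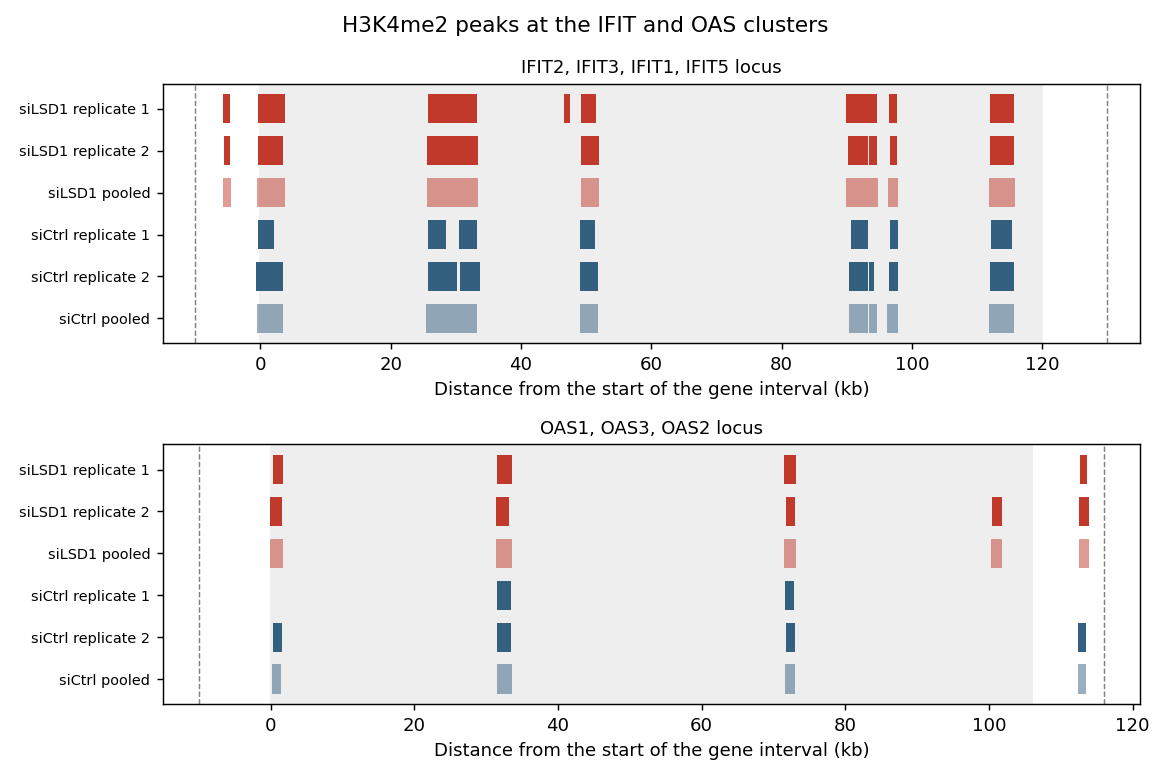
Peaks of each library and pooled list (rows) at the IFIT and OAS clusters, with distance from the start of the gene interval in kb on the horizontal axis, the gene interval in grey and the locus between dashed lines. The widest IFIT region is 1 bar in both siLSD1 libraries and 2 bars in both siCtrl libraries, and at OAS siCtrl replicate 1 has only 2 peaks.

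ISG15, in 1p36.33, carried a peak over its own interval in every list. The region over it, from 947710 to 951229, was 3.44 and 3.33 kb wide after siLSD1 against 3.15 and 3.13 kb after siCtrl, broader in both siLSD1 libraries, with a difference of the means of 0.246 kb. In siLSD1 replicate 1 it was called as a pair of peaks 16 bp apart. Its scores ranked high in all lists, at the percentiles 91.9 and 88.2 after siLSD1 and 96.8 and 85.1 after siCtrl. AGRN, the gene of the matrix proteoglycan agrin, follows ISG15 in the gene order. On that side a region from 954167 to 957761 was 3.44 and 3.56 kb wide after siLSD1 against 3.26 and 3.31 kb after siCtrl.

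On the other side of ISG15 the order was the reverse. A low region from 939644 to 941623 was 1.44 and 1.14 kb wide after siLSD1 against 1.66 and 1.88 kb after siCtrl. The region at the edge of the locus, from 933196 to 938161, overlapped it by 162 bp only, with the peak of siLSD1 replicate 1 ending just short of the locus, and was 4.54 and 4.53 kb wide after siLSD1 against 4.83 and 4.82 kb after siCtrl. These are the only 2 regions of the 5 loci that were narrower in both siLSD1 libraries. In lists of equal length the region from 939644 to 941623 had peaks in both siCtrl lists and in neither siLSD1 list, although each full siLSD1 list has one, with scores of 95.15 and 96.34.

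The OAS cluster in 12q24.13 had 5 regions over 126 kb, against 9 over 140 kb at IFIT, and 2 of the 5 were common. From 113375359 to 113377604 the width was 2.11 and 1.88 kb after siLSD1 against 1.96 and 1.85 kb after siCtrl, which overlap. From 113415534 to 113417087 it was 1.55 and 1.28 kb after siLSD1 against 1.26 and 1.20 kb after siCtrl. The region at the start of the interval, where OAS1 comes first, ran from 113343888 to 113345742. It had 1.46 and 1.66 kb after siLSD1, no peak in siCtrl replicate 1 and 1.37 kb in siCtrl replicate 2. A region after the interval, from 113456409 to 113457943, had the same pattern, with 0.969 and 1.37 kb after siLSD1, none in siCtrl replicate 1 and 1.05 kb in siCtrl replicate 2. Presence at these regions thus set siCtrl replicate 1 apart, not the siRNA groups. A peak from 113444471 to 113445761 was found in siLSD1 replicate 2 alone and, as one from 113444330 to 113445801, in the pooled siLSD1 list.

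MX1, in 21q22.3, carried 2 common regions near the start of its interval and none over the rest of its 40 kb. The first, from 42791592 to 42793602, was 1.84 and 2.01 kb wide after siLSD1 against 1.35 and 1.64 kb after siCtrl, broader in both siLSD1 libraries. The second, from 42797549 to 42799189, was 1.55 and 1.51 kb wide after siLSD1 against 1.37 and 1.60 kb after siCtrl and overlapped between the groups. Their scores spread widely between the siCtrl lists, with 68.68 and 453.43 at the first region. RefSeq lists 3 separate promoters for MX1, and which of them these peaks cover was not analysed here.

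Over the 16 common regions of the 5 loci, 7 were broader in each siLSD1 library than in either siCtrl library, 2 were narrower and 7 overlapped. In the genome 30.3% of common regions were broader and 9.62% narrower. Outside BST2 the counts were 5 broader and 2 narrower of 14, near those shares. Common regions of the loci had a median width of 2940.5 bp against 2789 bp for all common regions. Their median score percentiles were 88.1 and 86.1 in siLSD1 replicates 1 and 2, against 72.0 and 72.2 for all common regions, and 76.7 and 81.2 in siCtrl replicates 1 and 2, against 58.6 and 69.7. In every library list the median common region of these loci thus ranked above that of the genome.

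**Figure D5:**
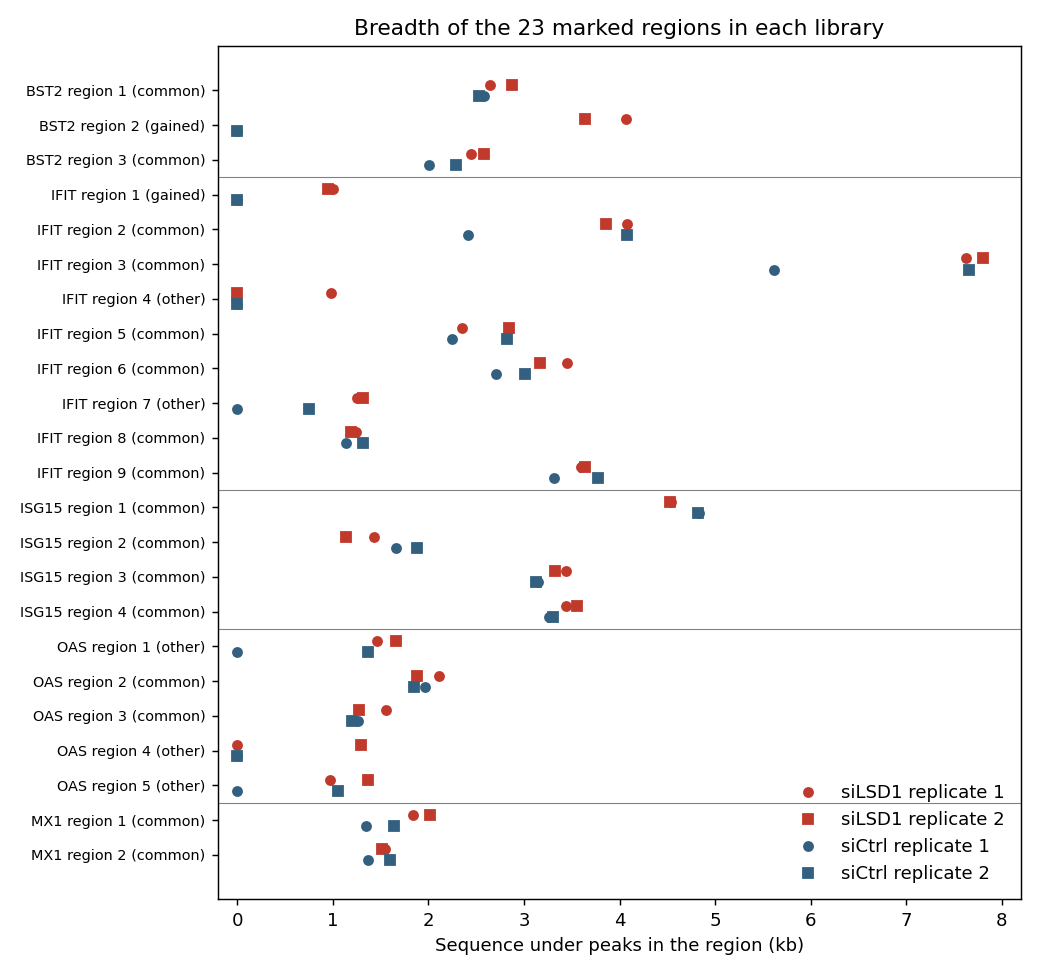
Kilobases under peaks (horizontal axis) in each of the 23 regions, numbered along each locus, with red for siLSD1 and blue for siCtrl libraries. Regions with all 4 points above 0 are common, the gained ones have both blue points at 0, and siCtrl replicate 1 alone is at 0 at 3 of those marked other.

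Ranks were also taken in lists cut to the same length, the 33878 top-scoring peaks, in which 14 of the 16 common regions were present in all 4 libraries. The score percentile was higher in both siLSD1 lists at 4 of them, lower in both at 2 and overlapping at 8. Over the genome these shares were 18.4% higher and 19.2% lower. The broadest IFIT region stood at 98.7 and 96.8 after siLSD1 against 85.3 and 75.2 after siCtrl. The OAS region from 113375359 stood at 59.3 and 54.1 after siLSD1 against 79.3 and 75.0 after siCtrl, and the AGRN side of ISG15 at 82.3 and 82.2 after siLSD1 against 89.9 and 91.4 after siCtrl. A rank is relative to the other peaks of its list and is not a level of the mark. The ranks therefore went both ways within the interferon-stimulated loci.

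In windows of 10 kb the covered length was compared with limma over the whole genome. None of 43372 windows passed a Benjamini-Hochberg adjusted p under 0.05 in either direction, 0% higher and 0% lower, and 12.4% were higher and 1.94% lower at an unadjusted p under 0.05. Outside BST2 the loci held 15 tested windows, of which 13 had a higher mean after siLSD1, against 72% of all windows. At an unadjusted p under 0.05, 1 of the 15 was higher and 0 were lower. That window holds the gained region before IFIT2, with the 1001 and 950 bp of siLSD1 against 0 and 0 bp of siCtrl, and its limma adjusted p was 0.129. This window passed the filter of at least 0.5 kb in at least 2 libraries through the siLSD1 libraries alone. A higher mean after siLSD1 was therefore fixed for it by the filter, and its p is a description only. The same window is counted in the 13 and in the median given below. The window with the second part of the IFIT cluster, from 91150001 to 91160000, had 5.95 and 5.67 kb after siLSD1 against 3.85 and 5.08 kb after siCtrl, a difference of 1.35 kb (SE 0.542, limma adjusted p of 0.469). The median difference over the 15 windows was 0.436 kb, against 0.213 kb over all windows.

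The pooled lists, on which the submitters based their own final analysis, held 22 peaks at the loci after siLSD1 and 19 after siCtrl. Of the 22, 3 had no counterpart in the pooled siCtrl list, namely those at BST2, before IFIT2 and at the far end of OAS. Of the 19, 0 lacked a partner in the pooled siLSD1 list. Over the whole lists the shares without a partner were 27% after siLSD1 and 8.86% after siCtrl. Covered length at BST2 was 7.64 kb in the pooled siLSD1 list and 2.89 kb in the pooled siCtrl list. At IFIT it was 26.6 kb after siLSD1 and 24.4 kb after siCtrl, a difference of 2.14 kb, against 4.75 kb between the means of the libraries. OAS had 8.63 kb after siLSD1 and 5.87 kb after siCtrl, MX1 had 3.72 kb after siLSD1 and 3.49 kb after siCtrl, and ISG15 had 9.11 kb after siLSD1 and 9.28 kb after siCtrl. The pooled lists thus put siLSD1 above siCtrl at BST2, which was chosen for its gain, and at IFIT, OAS and MX1, but not at ISG15. Over the whole genome the pooled siLSD1 list also covered more, 132 Mb against 107 Mb in the pooled siCtrl list.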

How the data were processed

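H3K4me2 ChIP-seq peak lists of 4 RD libraries and 2 pooled lists were analysed. The 4 input libraries were not used here. Per the submitters' processing notes, reads were aligned with Bowtie to hg19. Peak names carry the name of MACS, and no source used here gives its version, its settings or the use of input. The deposited score is the authors' own value per peak, from 50 upwards, and was used to describe, rank and cut lists only. Read depth is unknown, so the number of peaks is the only guide to precision.

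Groups came from the sample titles. Peaks on chromosomes 1 to 22 and X were kept, which left out 3 to 85 per list. Coordinates are counted from 1. Peaks overlapping by at least 1 bp were merged. An exact permutation test, two-sided, compared covered length per locus (scipy 1.17.1), and 10-kb windows with at least 0.5 kb in at least 2 libraries were compared by limma 3.58.1 (trend, robust; statmod 1.5.0, R 4.3.3). Region building was tested on simulated lists. Limma was tested on simulated, unfiltered windows of raised length, which do not stand for windows with no siCtrl peak. Other steps used Python 3.11.15, numpy 2.4.6, pandas 2.3.3 and matplotlib 3.10.9, and bands came from circlize 0.4.16.

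All 10 genes and every region at their loci are named, with the 5 gained regions nearest to that of BST2 in both score percentiles. Members, lists and alternatives were chosen with earlier results of these data known. Further genes of the pathway were not analysed here, as no hg19 annotation was used. Alternatives were equal lists, the upper 50% by score, loci not widened or widened by 25 kb, other merging rules, a replicate block, other limma settings and leaving out each library. Score percentiles in equal lists were added after the data were seen.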

Additional observations from a re-analysis of the deposited data

How the results depend on the processing

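The 11.9 kb more under peaks over the 5 loci after siLSD1 was 6.33 kb in lists of equal length and ranged from 7.39 to 16.5 kb over the sets that left out 1 library, 7.39 kb being without siCtrl replicate 1 and 16.5 kb without siCtrl replicate 2. This sum holds BST2, which was chosen for its gain. BST2 gave 4.25 kb of the sum in the full lists and also 4.25 kb in lists of equal length. Equal lists keep the top-scoring peaks, so a gained region chosen for its high score stays in them by that choice. Over the 4 other loci the difference in the full lists was 7.68 kb. At IFIT, OAS and MX1 the difference kept its sign under every alternative run, but the groups overlapped at IFIT with equal lists and at IFIT and OAS in the upper 50% by score. At ISG15 it was -1.27 kb with equal lists, -0.020 kb with the upper 50% by score, -0.0080 kb with loci not widened and -1.21 kb with loci widened by 25 kb, and ranged from -0.087 to 0.116 kb over the sets that left out 1 library. With equal lists and with loci widened by 25 kb, both siLSD1 libraries lay below both siCtrl libraries at ISG15. The 2 gained regions became 1 with equal lists, when 1 region was lost, and 1 with loci not widened. With loci widened by 25 kb they were 3. They ranged from 2 to 5 over the sets that left out 1 library, 5 being without siCtrl replicate 2. Over the genome 4107 regions were gained and 615 lost in the full lists. With equal lists 1376 were gained and 1433 lost, and without siCtrl replicate 2 the genome had 11055 gained. The region of BST2 was gained in each of these settings. It was chosen for its high score, and equal lists keep the top-scoring peaks, so this is no further result. In the upper 50% by score the second gained region was another, at IFIT from 91157540 to 91158786. With quantile normalization limma called 5 windows higher and 4 lower in the genome, 0 of them at the loci. At an unadjusted p under 0.05 it then had 3032 higher and 1912 lower, against 5389 and 840.

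The replicate numbers are not known to pair the samples. With a replicate block the difference over the loci was 11.9 kb and limma called 0 windows. Differences between replicates 1 and 2 in common regions correlated between the siRNAs with r of 0.247 across regions, which are not independent. Changes in single windows are hard to call with 2 libraries per group.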
